A study of Rattus norvegicus with 24 samples.

Results

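Transcripts of 6 genes that clear or buffer calcium in muscle were measured in the extraocular muscles (EOM), which turn the eyeball, and in the extensor digitorum longus (EDL), a fast hindlimb muscle, of rats aged 6, 18 and 30 months. The genes were Atp2a1, Atp2a2, Pln, Pvalb, Atp2b1 and Atp2b2. They were found by the gene symbol that the array platform's annotation gives to each probe set, the probes of 1 transcript read as 1 signal. They are 6 of the 4736 genes named on the array and have 14 of its 8740 probe sets that are not controls. Each of the 6 groups (EOM at 6, 18 and 30 months, and EDL at 6, 18 and 30 months) held 4 arrays, 24 in all. Each array measured total RNA pooled from the muscles of 4 animals, and no treatment or genetic change is named. Strain and sex are not given in the sources used here, nor is whether an age's EOM and EDL pools came from the same animals. P-values therefore measure the spread between pools.

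A contraction of a muscle fibre ends when calcium is taken out of the cytosol. Pumps of the SERCA family, encoded by Atp2a1 in fast fibres and by Atp2a2 in slow fibres, heart and many other cells, return it to the sarcoplasmic reticulum, and phospholamban (Pln) slows the pump until it is phosphorylated. Parvalbumin (Pvalb) binds calcium in the cytosol of fast fibres, while the plasma membrane pumps, encoded by Atp2b1 in most cells and by Atp2b2 chiefly in nerve and sensory cells, push calcium out of the cell.

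The EOM arrays carried the myosins that mark extraocular muscle. Myh13, the extraocular myosin heavy chain, lay between 10667 and 19960 arbitrary signal units on the 12 EOM arrays, against 19.9 to 175.3 units on the 12 EDL arrays. All 3 tested skeletal muscle markers (Acta1, Ckm and Des) were bright in both muscles and lower in EOM, and so were the 3 fast 2B fibre markers (Myh4, Tnni2 and Tnnc2). Markers of orbital glands, which lie beside these muscles, were present as well. Klk1 and Spt1 were higher in EOM as the mean over ages (log2 differences 2.98 and 5.17, limma adjusted p = 4.46e-07 and 2.23e-06) and Smr3b was not called. Spt1 ran from 160.1 to 31848.7 units in EOM, where replicates 3 and 4 at 6 and 18 months held the 4 highest values, against 11.5 to 43.2 units in EDL. Its means were 5945 ± 7480, 14210 ± 16500 and 229.2 ± 49.4 units in EOM at 6, 18 and 30 months (SD, n = 4 each), with no age comparison called. Klk1 was higher in EDL at 30 against 6 months (4.92, adjusted p = 4.73e-05), with 0.99 in EOM (adjusted p = 1). The part of gland in the values below was not tested. Array medians lay between 89.7 and 136.8 units. Precision is limited by the number of arrays. By its median correlation with the other arrays of its group, replicate 1 of EDL at 30 months was the lowest at 0.879, next to 0.884 for replicate 2 of EDL at 6 months and up to 0.954 elsewhere. The 25th percentile of an array, 21.4 to 34.5 units, served as its floor, to which lower values were raised. A fold change is on the log2 scale of the floored signal and understates the difference of a transcript near the floor.

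Pln separated the muscles most widely. Its signal was 5.77-fold higher in EOM as the mean over ages, and no EOM array overlapped an EDL array. A probe set each of Atp2a2 and Atp2b2 was also higher in EOM, by 1.94-fold and 2.06-fold. Neither was the brightest of its gene. The brightest Atp2a2 probe set was not called as the mean over ages, and the brightest of Atp2b2 did not pass the filter on low values. The fast fibre genes went the other way, with Atp2a1 1.31-fold and Pvalb 1.47-fold lower in EOM. The tested skeletal muscle and fast 2B fibre markers were lower in EOM too, with median log2 differences of -0.57 and -0.61. With age, a single probe set passed a test of 2 ages, J03754Complete_seq_at of Atp2b2, which was higher in EOM at 18 and at 30 than at 6 months. These comparisons called 0.174% and 0.0348% of all probe sets tested. Both calls were lost with a lower floor or none, and the brightest Atp2b2 probe set showed no such rise.

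Of the 14 probe sets, 10 passed the filter on low values, which asked that 3 or more arrays of some group exceed their own 40th percentile (53.8 to 83.8 units). They were those of Atp2a1 (1), Atp2a2 (4), Pln (1), Pvalb (1), Atp2b1 (2 of 3) and Atp2b2 (1 of 4). Pln passed only through the EOM groups, the Atp2b2 probe set J03754Complete_seq_at only through EOM at 18 and 30 months, and the Atp2b1 probe set rc_AI172499_at only through EDL at 18 months. In limma, with Benjamini-Hochberg adjustment over all 5741 probe sets tested and a call at an adjusted p under 0.05, the difference between EOM and EDL averaged over ages called 42.3% of all probe sets tested, 22.3% higher and 20% lower in EOM. Of the 10, 3 were called higher in EOM, 2 were called lower and 5 were not called, while 6 had an unadjusted p under 0.05. At 6 months 17.9% of all were called (11.6% higher, 6.29% lower), at 18 months 23.4% (14.1% and 9.25%) and at 30 months 19.2% (11.4% and 7.79%). At these ages 1, 4 and 3 of the 10 were called higher in EOM and 0 were called lower, while 2, 5 and 5 had an unadjusted p under 0.05 in either direction. The median log2 difference of the 10 was -0.17, 0.44 and 0.69 at these ages, beside -0.04, -0.05 and -0.07 for all probe sets tested. This median only describes the 10 and was not tested. Of the 10, 4 are of Atp2a2, and Pln and J03754Complete_seq_at entered through EOM groups in which they are high.

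**Figure D1:**
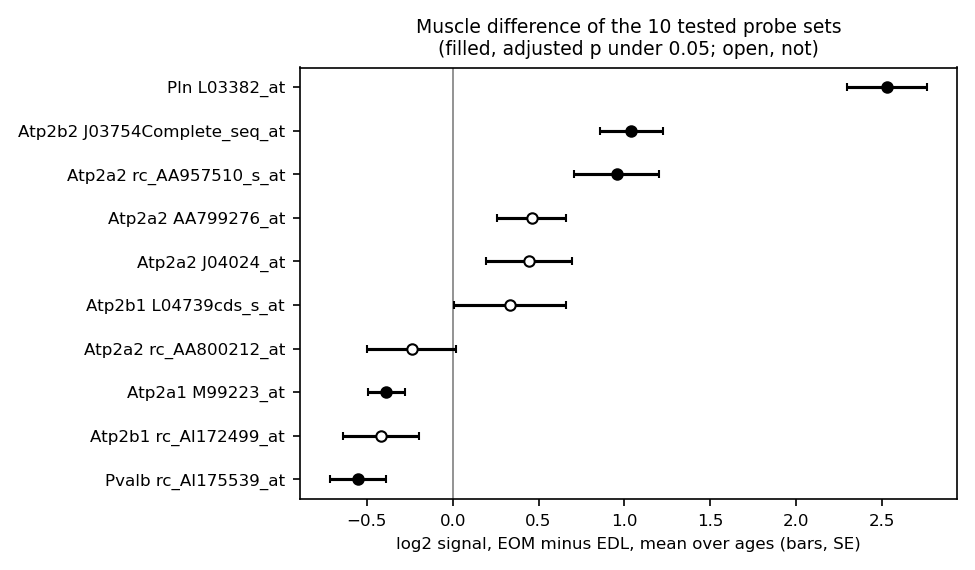
Log2 signal in EOM minus EDL, as the mean over the 3 ages, of the 10 tested probe sets, with the standard error (SE) as bars. Filled points have an adjusted p under 0.05. Pln stands at 2.53, the other called probe sets lie between -0.55 and 1.04, and 3 of the 4 Atp2a2 probe sets are open.

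The promoter sequences of the 4 genes of the pump, its inhibitor and the buffer are shown because these genes split into 1 that was higher in EOM (Pln), 1 whose probe sets were not all alike (Atp2a2) and a pair that was lower (Atp2a1 and Pvalb). Each line gives the 250 bases before the transcript start in RefSeq's table for the rat build GRCr8, 5′ to 3′ on the gene's strand. Capitals mark E-boxes, the pattern CANNTG that myogenic basic helix-loop-helix factors can bind, which reads the same on both strands. The Pln window is chr20:33172244-33172493 (plus strand), that of Atp2a2 is chr12:39733269-39733518 (plus strand), that of Atp2a1 is chr1:190475411-190475660 (minus strand) and that of Pvalb is chr7:111666290-111666539 (minus strand). For Pln and Pvalb the start used lies inside the gene's annotated span.
Pln: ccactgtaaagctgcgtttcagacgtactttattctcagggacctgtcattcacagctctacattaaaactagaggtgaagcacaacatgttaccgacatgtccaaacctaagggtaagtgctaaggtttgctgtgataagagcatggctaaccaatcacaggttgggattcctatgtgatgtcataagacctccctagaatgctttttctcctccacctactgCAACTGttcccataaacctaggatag
Atp2a2: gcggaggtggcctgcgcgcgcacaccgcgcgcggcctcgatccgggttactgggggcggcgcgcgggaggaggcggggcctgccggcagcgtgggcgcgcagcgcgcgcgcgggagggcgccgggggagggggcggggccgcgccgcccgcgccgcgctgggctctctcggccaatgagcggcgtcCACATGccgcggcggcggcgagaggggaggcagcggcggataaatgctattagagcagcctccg
Atp2a1: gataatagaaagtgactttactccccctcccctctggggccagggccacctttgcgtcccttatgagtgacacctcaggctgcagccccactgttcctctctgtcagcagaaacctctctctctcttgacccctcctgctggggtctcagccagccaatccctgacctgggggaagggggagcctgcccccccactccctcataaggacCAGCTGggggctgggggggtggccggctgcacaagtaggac
Pvalb: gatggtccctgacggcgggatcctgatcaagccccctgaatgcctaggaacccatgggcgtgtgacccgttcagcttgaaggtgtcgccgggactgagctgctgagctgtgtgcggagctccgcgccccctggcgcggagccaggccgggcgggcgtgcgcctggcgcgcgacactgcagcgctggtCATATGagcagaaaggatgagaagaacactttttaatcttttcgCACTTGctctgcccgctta
Pln, Atp2a2 and Atp2a1 have 1 E-box each, 26, 64 and 41 bases before the start, and Pvalb has 2, at 63 and 19 bases. The pattern is common: 65.5% of 33469 promoter windows of this length hold at least 1. The pattern CTANNNNTAG, a form of the MEF2 site with its middle bases left free, is in none of the 4 windows and in 3.41% of all. Forms of the site with other end bases were not searched. The windows differ in base composition, with 44% G and C for Pln, 80% for Atp2a2, 62.4% for Atp2a1 and 62.8% for Pvalb. These are matches of letters and not measured binding.

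Atp2a1, the fast SERCA pump, was bright on every array (probe set M99223_at). In EOM its signal in replicates 1 to 4 was 23079, 22168, 16807 and 26609 units at 6 months, 23856, 26941, 19497 and 26646 units at 18 months, and 24295, 25596, 16858 and 29093 units at 30 months. In EDL it was 33418, 24701, 22493 and 34889 units at 6 months, 33892, 30268, 27832 and 39979 units at 18 months, and 32722, 28891, 25456 and 32634 units at 30 months. The groups did not overlap at 18 months and did at 6 and 30 months. The mean over ages was lower in EOM (log2 difference -0.39, SE 0.11, limma adjusted p = 0.00551), while no single age passed. Beside it, the median log2 difference was -0.57 for the tested skeletal muscle markers and -0.61 for the fast 2B fibre markers. Whether Atp2a1 differs apart from these muscle transcripts was not tested. Means were 22170 ± 4050, 24240 ± 3450 and 23960 ± 5150 units in EOM at 6, 18 and 30 months, and 28880 ± 6190, 32990 ± 5280 and 29930 ± 3470 units in EDL (SD, n = 4 each). The 3 EDL means thus stand above the 3 EOM means, and within a muscle neighbouring ages differed by less than their spread. Replicate 3 had the lowest Atp2a1 signal in 6 of the 6 groups. After quantile normalisation the difference was -0.05 (adjusted p = 0.43), so the call depends on how arrays are scaled.

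Parvalbumin (Pvalb, rc_AI175539_at) was lower in EOM as well. In EOM the 4 arrays gave 19670, 11238, 13157 and 20175 units at 6 months, 18113, 21731, 18172 and 22463 units at 18 months, and 17581, 23583, 13421 and 21687 units at 30 months. In EDL they gave 29780, 25407, 9824 and 36818 units at 6 months, 25992, 29075, 25472 and 35081 units at 18 months, and 30669, 25685, 23654 and 33011 units at 30 months. EOM lay wholly below EDL at 18 and at 30 months, by a narrow gap at 30 months, and at 6 months replicate 3 of EDL fell below all EOM arrays. The mean over ages was lower in EOM (log2 difference -0.55, SE 0.16, limma adjusted p = 0.00823) and no single age passed. The medians of the skeletal muscle and fast 2B fibre markers, -0.57 and -0.61, stood beside this value. A difference of Pvalb apart from theirs was not tested. Quantile normalisation gave -0.24 (adjusted p = 0.109). On the same array, Pvalb minus Atp2a1 in log2 ranged from -0.98 to -0.10 in EOM and from -1.20 to 0.08 in EDL, so the ranges of the muscles overlapped. This difference is within an array, and signals of different probe sets do not give relative abundance.

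**Figure D2:**
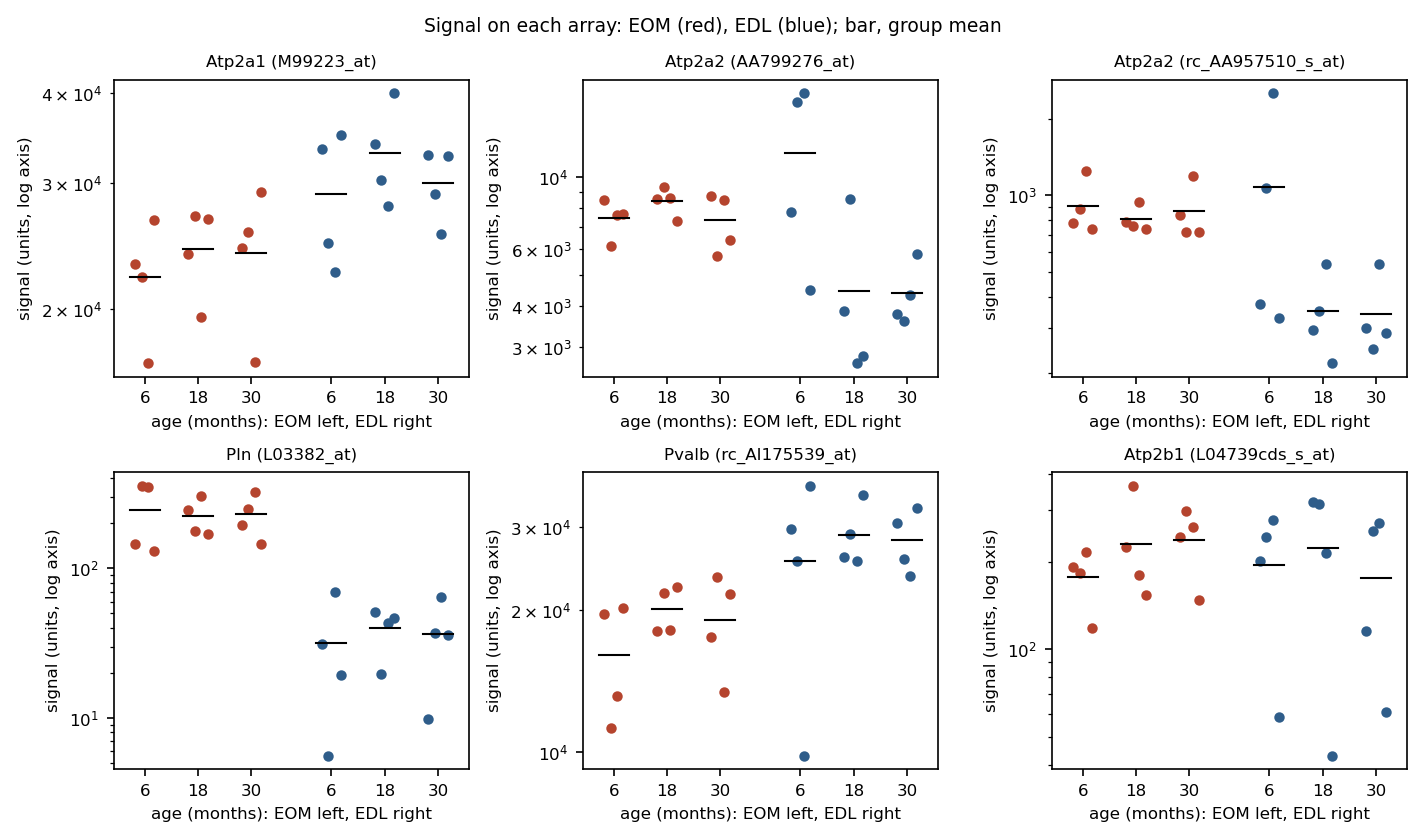
Signal in arbitrary units (log axis) on each array for 6 probe sets, with EOM in red on the left and EDL in blue on the right, at 6, 18 and 30 months, and the group mean as a bar. Pln splits completely by muscle. The Atp2a2 panels show 2 high EDL arrays at 6 months, and 1 low array in each EDL group in the Atp2b1 panel is replicate 4.

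Atp2a2, the SERCA pump of slow fibres and of most other cells, had 4 probe sets of unequal behaviour. By the brightest (AA799276_at), the EOM arrays gave 8463, 6122, 7624 and 7712 units at 6 months, 8545, 9340, 8588 and 7329 units at 18 months, and 8762, 5728, 8515 and 6401 units at 30 months. EDL gave 7775, 17024, 18143 and 4476 units at 6 months, 3869, 8525, 2671 and 2806 units at 18 months, and 3770, 3605, 4342 and 5794 units at 30 months. EOM thus kept to a narrow band at all ages, whereas EDL spread widely at 6 months, where replicates 2 and 3 were far above replicates 1 and 4. The log2 difference was -0.46 at 6 months, 1.09 at 18 months and 0.75 at 30 months (SE 0.35 each). Only that at 18 months passed in limma (adjusted p = 0.0243, 2.12-fold higher in EOM), although 1 EDL array there, replicate 2 at 8525 units, lay within the EOM range. Leaving out replicate 3 or 4 of EDL or replicate 2 of EOM at 18 months ended that call, with an adjusted p of 0.0887, 0.0814 and 0.0595, and so did centring the arrays on their medians (1.01, adjusted p = 0.0684). The mean over ages was 0.46 (SE 0.20, adjusted p = 0.0678). It passed after quantile normalisation (0.56, adjusted p = 0.0267) and with array quality weights (0.56, adjusted p = 0.00956), so its call depends on the setting.

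The next Atp2a2 probe set (rc_AA957510_s_at) was higher in EOM as the mean over ages, by 0.95 (SE 0.25, limma adjusted p = 0.00291). The EOM arrays gave 776.3, 883.9, 1249.1 and 736.3 units at 6 months, 787.4, 758.7, 942.7 and 735.2 units at 18 months, and 837.5, 714.3, 1185 and 719.1 units at 30 months. EDL gave 375, 1066.3, 2520.6 and 330.7 units at 6 months, 297.2, 352.9, 536.4 and 219.4 units at 18 months, and 302.1, 248.6, 535.2 and 287.5 units at 30 months. The muscles did not overlap at 18 and at 30 months, where the log2 difference was 1.27 (adjusted p = 0.0332) and 1.37 (adjusted p = 0.0254). At 6 months it was 0.23 (adjusted p = 0.786), with the same 2 EDL arrays high. The call at 18 months was lost without any 1 of the 4 EOM arrays or replicate 1, 2 or 4 of EDL of that age (adjusted p up to 0.104). That at 30 months was lost without replicate 3 of EOM or replicate 1, 2 or 4 of EDL of that age (up to 0.0782). Replicate 3 was the highest array of this probe set in 6 of the 6 groups.

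The 2 dimmer Atp2a2 probe sets were not called in any comparison. J04024_at ranged from 123.1 to 340.5 units in EOM and from 84 to 608.8 units in EDL, with a mean over ages of 0.45 (SE 0.25, adjusted p = 0.158). rc_AA800212_at ranged from 66.1 to 159.5 units in EOM and from 56.2 to 560.2 units in EDL, with -0.24 (SE 0.26, adjusted p = 0.48). The highest EDL value of both came from replicate 3 at 6 months. Across the 12 EDL arrays, AA799276_at followed rc_AA957510_s_at (Pearson r = 0.77) and J04024_at (r = 0.77) and hardly rc_AA800212_at (r = 0.16). Across the 12 EOM arrays its r with these was 0.25, 0.13 and -0.58. These correlations describe arrays that share groups and scaling.

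Replicates 2 and 3 of EDL at 6 months also carried the highest signals of slow fibre markers. Their summed signal over the 5 slow markers measured (Myh7, Myl2, Myl3, Tnni1 and Tpm3) was 92634 and 86869 units, against 41059 and 26241 units in replicates 1 and 4, 15185 to 48363 units in the other EDL groups and 21736 to 30012 units in EOM. Tnni1, slow troponin I, read 11925 and 11801 units on these 2 arrays, against 3376 and 1627 units in replicates 1 and 4. Across the EDL arrays, log2 Atp2a2 signal (AA799276_at) and the log2 slow sum had a Pearson r of 0.93 and a Spearman rho of 0.81 (n = 12), and without these 2 arrays an r of 0.79 and a rho of 0.68 (n = 10). The other probe sets followed the slow sum in EDL less closely without these arrays: r was 0.20 for rc_AA957510_s_at (0.77 with them), 0.29 for J04024_at (0.78) and -0.47 for rc_AA800212_at (0.14). Across the EOM arrays r was 0.05 and rho 0.28 for AA799276_at (n = 12), and r was -0.61, -0.43 and -0.62 for the other three. The probes of Myh7 are of a kind shared within a gene family. In pooled tissue, more cells of a type and more RNA per cell cannot be told apart, and the part of slow fibres in the Atp2a2 values was not tested.

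Because these 2 arrays stand apart, each comparison was refitted without them, a choice made after seeing their values. Since they carry the highest Atp2a2 signals of EDL by 3 of the 4 probe sets, a larger difference of EOM over EDL follows from leaving them out and is no independent support. The Atp2a2 mean over ages was then 0.72 by AA799276_at (adjusted p = 0.00141), 1.32 by rc_AA957510_s_at (adjusted p = 6.84e-07) and 0.80 by J04024_at (adjusted p = 0.00175), all higher in EOM. At 6 months rc_AA957510_s_at was higher in EOM by 1.34 (adjusted p = 0.00491), Pvalb was lower by a log2 difference of -1.09 (adjusted p = 0.00263) and Atp2a1 was lower by -0.64 (adjusted p = 0.0432). rc_AA800212_at stood at -0.03 (adjusted p = 0.928).

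**Figure D3:**
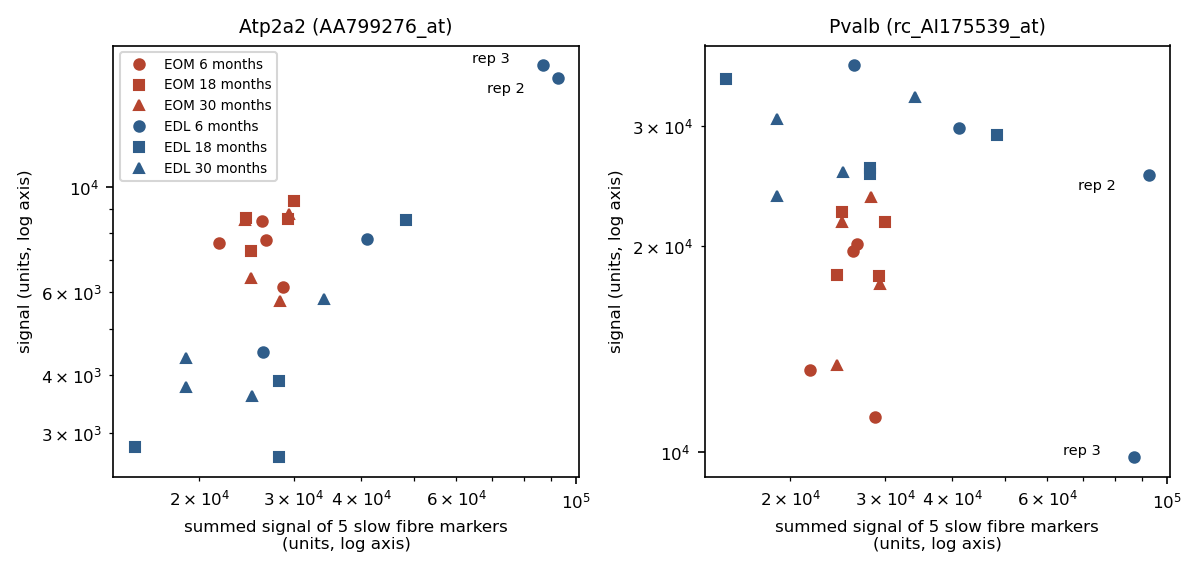
Signal of Atp2a2 (left) and Pvalb (right) on each array against the summed signal of 5 slow fibre markers (both in arbitrary units, log axes), with EOM in red and EDL in blue and a symbol for each age. Replicates 2 and 3 of EDL at 6 months lie at the far right, at 92634 and 86869 units, where Atp2a2 is at its highest and Pvalb of replicate 3 is at its lowest, 9824 units.

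Phospholamban (Pln, L03382_at), the inhibitor of the SERCA pump in heart, slow fibres and smooth muscle, was measured on all EOM arrays and near the floor in EDL. In EOM its signal was 146, 358.4, 351.4 and 129.9 units at 6 months, 244.5, 178.4, 302.8 and 170 units at 18 months, and 196.1, 249.5, 326.5 and 146.3 units at 30 months. In EDL it was 31.1, 5.6, 69.8 and 19.5 units at 6 months, 51.2, 19.6, 43.3 and 46.7 units at 18 months, and 9.8, 36.7, 64 and 36.1 units at 30 months. The lowest EOM array, at 129.9 units, was above the highest EDL array, at 69.8 units. None of the 12 EDL arrays was above the filter, and 4 of them were at the floor. The log2 difference was 2.67, 2.50 and 2.42 at 6, 18 and 30 months (SE 0.41 each, limma adjusted p = 3.15e-05, 6.08e-05 and 0.000103) and 2.53 as the mean over ages (SE 0.23, adjusted p = 3.72e-09).

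No age comparison of Pln passed in either muscle. Means were 246.4 ± 125, 223.9 ± 62.2 and 229.6 ± 77.1 units in EOM and 31.5 ± 27.6, 40.2 ± 14.1 and 36.7 ± 22.1 units in EDL at 6, 18 and 30 months (SD, n = 4 each). The log2 change at 30 against 6 months was -0.01 in EOM and 0.24 in EDL (SE 0.41 each, adjusted p = 1 and 0.951). Changes of about the size of the SE would not be detectable with these arrays. A change of several times the SE can also miss a call, so a change of Pln with age could have gone uncalled. On the same array, Pln minus Atp2a2 in log2 lay between -5.89 and -4.09 in EOM and between -9.38 and -5.91 in EDL. The ranges came within 0.02 of each other, and with Pln near the floor in EDL the EDL values are partly set by the floor. This ratio was not tested.

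Markers of other cells that use Pln also differed between the muscles. All 4 tested smooth muscle markers (Acta2, Cnn1, Myh11 and Tagln) were higher in EOM, with a summed signal of 3419 to 9493 units in EOM and 1450 to 3430 units in EDL. Of the cardiac markers, Myl4, Myl7 and Myh6 were tested and none was called as the mean over ages, while Myh6 was lower in EOM at 6 months (-1.32, limma adjusted p = 0.0122), with a summed signal of 4241 to 7934 units in EOM and 4485 to 24800 units in EDL for all 6. Most of that sum is the family-type probe set of Myh6. The defining cardiac markers Nppa, Nppb and Tnni3 did not pass the filter in any group, and Nppb was at the floor on 8 of 12 EOM arrays and 6 of 12 EDL arrays. Of the slow fibre markers, as the mean over ages, Tpm3 was higher in EOM (1.06), Myl3 was lower (-1.54), and Myh7, Myl2 and Tnni1 stood at -0.31, -0.02 and 0.03 with no call. At 6 months, where the 2 high EDL arrays lie, Myl3 (-2.38) and Myh7 (-1.06) were called lower in EOM. The part of smooth muscle or slow fibres in the Pln difference was not tested.

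Pln and Atp2a2 allowed a comparison of their pattern over the 6 groups, since the group means of their brightest probe set spanned at least 1 in log2. Atp2b2 stood here by its brightest probe set, L05557cds_g_at, which did not pass the filter and spanned 0.41. The pattern of J03754Complete_seq_at was not compared. For Pln, the closest of 3413 genes by the root mean square difference of centred group means were Fez1 (0.09), Rab15 (0.12) and Tmem47 (0.15). The likeness is of floored values: the mean Fez1 signals of 13, 9.78 and 12 units in EDL at 6, 18 and 30 months lie below the floor, and Pln in EDL is near it, so the EDL side of this likeness is between floored values. Rab15, for example, had means of 300.6, 319.2 and 300.5 units (EOM) and 51, 53.4 and 70.1 units (EDL) at the 3 ages. For Atp2a2 by AA799276_at they were Fn1 (0.17), Pcolce (0.20) and Fkbp11 (0.22), so the likeness was looser. For Fn1 the means were 1826, 2076 and 1550 units in EOM and 1898, 851.3 and 1002 units in EDL, with the EDL mean at 6 months above those at 18 and 30 months, as for Atp2a2.

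Atp2b1, the plasma membrane pump found in most cells, was not called in any comparison. Its brightest probe set (L04739cds_s_at) ranged from 118.4 to 365.2 units in EOM and from 43 to 319.3 units in EDL, with a mean over ages of 0.33 (SE 0.33, limma adjusted p = 0.432). Replicate 4 was lowest in 6 of the 6 groups, at 118.4, 153.9 and 147.8 units in EOM and 58.6, 43 and 60.8 units in EDL at 6, 18 and 30 months. rc_AI172499_at read 22.9 to 67.9 units in EOM and 11.1 to 106.1 units in EDL, with -0.42 (SE 0.22, adjusted p = 0.132). The third probe set, rc_AI103671_at, did not pass the filter and was at the floor on 12 of 12 EOM arrays and 10 of 12 EDL arrays.

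Atp2b2, a plasma membrane pump best known from neurons and the hair cells of the inner ear, rose with age in EOM by its probe set J03754Complete_seq_at. In EOM the signal was 29.4, 25.3, 10.7 and 20.4 units at 6 months, 98.9, 94.8, 80.3 and 81.3 units at 18 months, and 92.1, 130.1, 121.8 and 92.9 units at 30 months. In EDL it was 4, 42.2, 6.9 and 3.9 units at 6 months, 66.5, 4.6, 5.5 and 5.7 units at 18 months, and 12.7, 6.4, 3.9 and 3.8 units at 30 months. Every EOM array at 18 and at 30 months was above every EOM array at 6 months, a separation found in 4.04% and 2.39% of all probe sets tested. Of the EDL arrays, 10 of 12 were at the floor, the exceptions being replicate 2 at 6 months and replicate 1 at 18 months.

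For EOM at 30 against 6 months, limma called 0.0348% of all probe sets tested, which is 2 of 5741, and the Atp2b2 probe set was 1 of the 2 (log2 change 1.96, SE 0.32, 3.88-fold, adjusted p = 0.0163). At 18 against 6 months it called 0.174%, and Atp2b2 was again higher (1.67, SE 0.32, 3.18-fold, adjusted p = 0.0318). Between 18 and 30 months the log2 change was 0.29 (adjusted p = 1). The test of any age effect called 0.105% of probe sets in EOM, Atp2b2 among them (adjusted p = 0.0127), and 2.4% in EDL. Whether the change differed between the muscles did not pass: EOM minus EDL for 30 against 6 months was 2.00 (SE 0.46, adjusted p = 0.0689), where 0.192% of probe sets were called.

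The call rests on signals close to the floor. With the floor at the 10th percentile the EOM changes were 2.43 (adjusted p = 0.72) at 30 months and 2.14 (adjusted p = 0.307) at 18 months. With log2(value + 32) and no floor they were 1.40 (adjusted p = 0.0773) and 1.19 (adjusted p = 0.107). Leaving out replicate 1, 2 or 3 of EOM at 6 months or replicate 2 at 30 months ended the call at 30 months, with an adjusted p of up to 0.102. Leaving out any 1 of the 8 EOM arrays of 6 and 18 months ended that at 18 months, up to 0.171. The log2 change stayed between 1.87 and 2.03 at 30 months and between 1.62 and 1.72 at 18 months when single arrays were left out.

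Between the muscles, J03754Complete_seq_at was higher in EOM at 18 months (1.35, SE 0.32, 2.56-fold, limma adjusted p = 0.00292). At 30 months all 4 EDL arrays were at the floor, so that EOM was at least 3.7-fold higher (adjusted p = 0.000137). At 6 months the difference was -0.12 (adjusted p = 0.855), with 2 of 4 EOM arrays and 3 of 4 EDL arrays at the floor. The 18 and 30 month groups did not overlap. Among the 10 probe sets, 1 had muscles that did not overlap at 6 months, 5 at 18 months and 5 at 30 months, beside 20.1%, 26.3% and 22.2% of all probe sets tested.

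The other 3 Atp2b2 probe sets did not pass the filter. L05557cds_g_at, the brightest of the 4 as the mean of all 24 arrays but dimmer than J03754Complete_seq_at in EOM at 18 and 30 months, averaged 66.7 ± 11.6, 67.7 ± 25.9 and 60.9 ± 14.8 units in EOM and 69.3 ± 40.2, 90.7 ± 68.3 and 55.3 ± 14.5 units in EDL at 6, 18 and 30 months (SD, n = 4 each), with no order by age in EOM. rc_AA955388_s_at gave 9.4, 10.1, 6.7 and 6.2 units in EOM at 6 months, 25.7, 19.8, 8.9 and 42.8 units at 18 months, and 44.3, 73.2, 42.7 and 64.1 units at 30 months, with 12 of 12 EDL arrays at the floor. This one ran the same way as J03754Complete_seq_at, and in a fit without the filter its change in EOM at 30 against 6 months was 1.08 (adjusted p = 0.0749). rc_AA943784_s_at averaged 30.1 ± 8.95, 55.5 ± 30 and 52.5 ± 35.7 units in EOM, with 11 of 12 EDL arrays at the floor. Its change in EOM at 30 against 6 months in the fit without the filter was 0.599 (adjusted p = 0.999). Between the muscles, that limma fit called it higher in EOM as the mean over ages (0.613, adjusted p = 0.0165). For rc_AA955388_s_at the mean over ages was 0.32 (adjusted p = 0.0531) and 30 months was called (0.902, adjusted p = 0.00481). L05557cds_g_at stood at 0.019 as the mean over ages (adjusted p = 0.97). The probe sets of 1 gene therefore disagreed on age in EOM. L05557cds_g_at showed no order, while the means of J03754Complete_seq_at, rc_AA955388_s_at and rc_AA943784_s_at were higher at 18 and 30 than at 6 months.

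**Figure D4:**
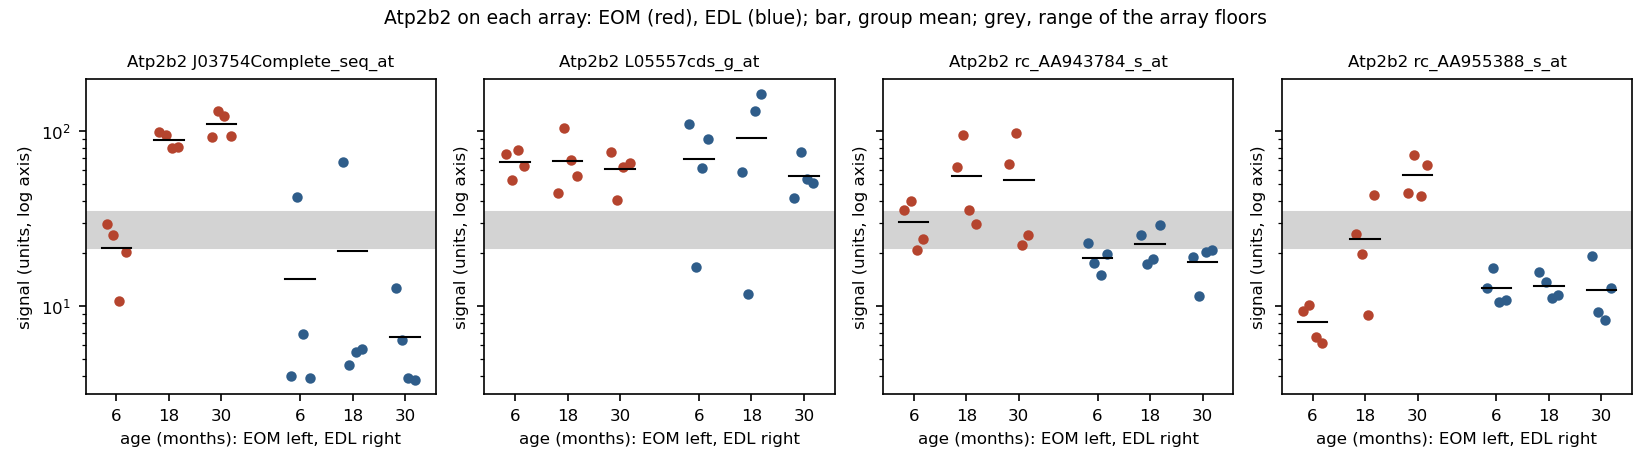
Signal in arbitrary units (log axis) of the 4 Atp2b2 probe sets on each array, with EOM in red on the left and EDL in blue on the right, at 6, 18 and 30 months, the group mean as a bar and the range of the array floors (21.4 to 34.5 units) in grey. In the first panel the EOM arrays at 18 and 30 months, 80.3 to 130.1 units, clear the grey band, those at 6 months do not, and the second panel shows no such step.

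Nerve markers were given beside Atp2b2, because neurons use this pump. Of the 4 tested, Nefl, Nefm and Gap43 were higher in EOM as the mean over ages and Snap25 was not called (-0.06). The summed signal of the 6 nerve markers measured was 646.5 ± 170, 824.2 ± 100 and 880.7 ± 170 units (EOM; 6, 18 and 30 months), and 335.1 ± 96, 368.6 ± 119 and 303 ± 89.1 units in EDL (SD, n = 4 each). Nefm, a neurofilament subunit, read 101.4, 237, 192.5 and 95.8 units in EOM at 6 months, 356.6, 348.2, 300.4 and 236.5 units at 18 months, and 392, 429.5, 547.3 and 316.9 units at 30 months. Its log2 change in EOM at 30 against 6 months was 1.51 (adjusted p = 0.179) and that of Nefl was 0.01 (adjusted p = 1), and Syt1 was at the floor on 12 of 12 EOM arrays. The mean of Nefm in EOM was 156.7 units at 6 months and 421.4 units at 30 months. At the same ages Gap43 averaged 167.8 and 146.6 units and Nefl 192.7 and 190.2 units. Snap25 averaged 80.58 and 82.45 units and Nefh 40.33 and 33.2 units, so the rise of the sum lay in Nefm. All 3 tested Schwann cell markers were higher in EOM too, with a summed signal of 4165 to 6517 units in EOM and 757 to 1796 units in EDL. The part of nerve in the Atp2b2 values was not tested.

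In EDL, 0 of the 10 probe sets were called for 30 against 6 months (1.86% of all probe sets tested), 18 against 6 months (0.279%) or 30 against 18 months (1.55%) in limma, while 3, 2 and 1 had an unadjusted p under 0.05. Atp2a2 came nearest. AA799276_at had a log2 change of -1.24 at 30 against 6 months (adjusted p = 0.0698) and of -1.36 at 18 against 6 months (adjusted p = 0.111), and it passed the test of any age effect in EDL (adjusted p = 0.0417). Without the 2 EDL arrays at 6 months described above, these changes were -0.46 (adjusted p = 0.772) and -0.57 (adjusted p = 0.998). Myl2, a slow fibre marker, was called lower in EDL at 30 against 6 months in the full fit (-1.25, adjusted p = 0.0128). In EOM, no probe set of the other 5 genes was called with age, and 30 against 18 months called 0 of the 10 (0.0174% of all, 0 of the 10 at an unadjusted p under 0.05). The limma interactions called 0 of the 10 for 18 against 6 months (0% of all, 2 of the 10 at an unadjusted p under 0.05) and for 30 against 18 months (0.331%, 0 of the 10 unadjusted).

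Other genes of calcium handling were read from 4 lists of the pathway. Of their 41 tested members, 7 were higher in EOM, 16 were lower and 18 were not called as the mean over ages, where 22.3% of all probe sets tested were higher and 20% lower, with a median log2 difference of -0.26 beside -0.07 for all probe sets tested. Of the release and excitation-contraction coupling list, 13 of 25 were tested, and 1 was higher and 6 lower (22.3% and 20% of all). The lower ones were led by Cacng1, a subunit of the muscle's voltage sensor (-1.64), Homer2, a scaffold protein (-1.55), Jph2, which ties the reticulum to the T-tubule (-1.19), and Asph, a junction protein of the reticulum (-0.996), and the higher one was Itpr3, an inositol trisphosphate receptor (0.32). Cacna1s, the voltage sensor itself, stood at -0.73 (adjusted p = 7.83e-07).

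Among store proteins and buffers, 4 of 9 tested genes were higher in EOM and 1 was lower (22.3% and 20% of all). Casq2, the calsequestrin of heart and slow fibres, was higher (1.53, SE 0.23, limma adjusted p = 6.92e-06), while Casq1, that of fast fibres, was lower (-0.50, SE 0.13, adjusted p = 0.00296). S100b (3.07), S100a1 (0.70) and Calr (0.48) were the other higher ones, and S100b is also a Schwann cell marker. Of the other pumps, exchangers and pump regulators, 0 of 6 were higher and 2 were lower (22.3% and 20% of all), the sodium-calcium exchanger Slc8a3 (-0.61) and the plasma membrane pump Atp2b3 (-0.48). Atp2a3, the third SERCA gene, stood at 0.26 (adjusted p = 0.168).

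The list of calmodulin, its kinases and calcineurin also held subunits of protein kinase A and inhibitors of the phosphatase PP1. Of its 13 tested genes, 2 were higher in EOM and 7 were lower (22.3% and 20% of all). Ppp1r1a, an inhibitor of the phosphatase PP1, was the lowest (-2.07, SE 0.12, limma adjusted p = 1.12e-12), followed by the kinase subunit Camk2a (-1.72), the calcineurin catalytic subunit Ppp3ca (-1.17) and Camk2b (-0.92). The 2 higher genes were subunits of protein kinase A, Prkar1a (1.13) and Prkaca (0.59). With age, limma called 0 of the 41 at 30 against 6 months in EOM (0.0348% of all probe sets tested) and 0 in EDL (1.86%), with 0 and 5 at an unadjusted p under 0.05.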

How the data were processed

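Total RNA of 24 pools was measured on the Affymetrix Rat Genome U34 array. The authors deposited 1 intensity for each probe set on each array, on a linear scale, made with MAS5 per the submitters' processing notes. No detection calls or scanner files were used here. The sources used here give no scan dates. Of 8799 probe sets, 59 controls were removed. The platform annotation gives 1 gene symbol to 7006 of the remaining 8740, several to 308 and none to 1426, and only those with 1 were named. Intensities were floored at each array's 25th percentile, log2 was taken, and 5741 probe sets passed the filter (2999 did not).

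The 24 arrays entered 1 limma fit with a mean for each of the 6 groups (limma 3.58.1, R 4.3.3, lmFit, eBayes with an intensity trend, 18 residual degrees of freedom), two-sided, and checked on simulated data. An interaction subtracts the EDL change from that in EOM. Alternatives were other floors, no filter, quantile normalisation, median centring, no trend, array weights, only the groups compared, a replicate block, replicates 1 and 2 or 3 and 4 alone, each array left out in turn, and non-overlapping arrays with a mean change above 2-fold, after the design text.

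All probe sets of the 6 genes are described, and a gene is represented by its brightest. Of each pathway list, up to 4 called genes a direction are named, by the size of the difference; Cacna1s and Atp2a3 were added after their values were seen. The genes and all lists were chosen with earlier results of these data known. Promoters are from RefSeq (GRCr8), whose table matched the 4 genes shown.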

Additional observations from a re-analysis of the deposited data

Results flagged for a closer look

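In 3 of the 60 groups of 4 arrays examined, 1 array stood apart from the other 3 on the floored log2 scale by Dixon's 95% criterion. Chance meets this criterion in about 1 group in 20, so 3 of 60 is no more than the share that chance gives. Atp2a2 by J04024_at read 340.5 units on replicate 3 of EOM at 30 months, against 206.8 to 216.5 units on the other 3 arrays. Atp2a2 by rc_AA800212_at read 211.5 units on replicate 1 of EDL at 30 months, against 125.1 to 134.3 units on the others, and this is the array with the lowest correlation with its group. Pln read 64 units on replicate 3 of EDL at 30 months, against 9.8 to 36.7 units on the others, still below every EOM array. What sets these arrays apart was not tested.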

How the results depend on the processing

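Of 130 results for single probe sets, 15 were called and 0 were called in the opposite direction under any of 37 other settings. Of the 15, 3 were called under every setting run. They were the means over ages of Pln and Atp2b2 J03754Complete_seq_at and Pln at 18 months. For the mean over ages, the 3 probe sets called higher became 5 without replicates 2 and 3 of EDL at 6 months, and the 2 called lower (Atp2a1 and Pvalb) became 0 after quantile normalisation and with only replicates 3 and 4. Over all probe sets, in the same order, 1278 called higher became 1256, and 1148 called lower became 1319 and 792. At 6 months the 1 called higher became 0 with only replicates 3 and 4 and 2 without those 2 EDL arrays. Over all, 668 called higher became 307 and 601. Of the 10, the 0 called lower became 1 after quantile normalisation, after median centring, with the replicate block and with only replicates 1 and 2, and 2 without the 2 EDL arrays. Over all, 361 called lower became 434, 344, 609, 232 and 304 in these settings. At 18 months the 4 called higher became 2 with only replicates 1 and 2 and 1 with only replicates 3 and 4, and the 0 called lower became 1 with only the groups compared and with the replicate block. Over all, 812 called higher became 549 and 393, and 531 called lower became 524 and 823. At 30 months the 3 called higher became 1 with only replicates 3 and 4, and the 0 called lower became 2 with the replicate block and 1 without the 2 EDL arrays. Over all, 656 called higher became 280, and 447 called lower became 721 and 492. In EDL at 30 against 6 months the 0 called lower became 1 with the replicate block (Atp2a2 rc_AA957510_s_at), with only replicates 1 and 2, and by the rule of non-overlapping arrays and 2-fold change. Over all, 107 called in either direction became 172 and 180 in the first 2 of these, and the rule picked 1.86%. In EOM, the 1 called higher at 30 against 6 months and the 1 at 18 against 6 months (both Atp2b2) became 0 with the floor at the 10th percentile, with log2(value + 32), with only replicates 1 and 2 and with only replicates 3 and 4, and at 30 months also with only the groups compared. Over all, in the same order, the 2 called at 30 months in either direction became 0, 1, 0, 1 and 0. The 10 called at 18 months became 2, 11, 0 and 0. For the interaction at 30 against 6 months, the 0 called higher became 1 (Atp2b2) without the filter, after quantile normalisation, without the trend and with the replicate block. Over all, 11 called in either direction became 11, 14, 13 and 34. The cause of these shifts was not tested.

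Leaving out 1 array at a time gave 3 to 5 called higher and 2 to 3 called lower for the mean over ages, and 0 to 1 lower at 6 months. It gave 2 to 4 higher at 18 months, 2 to 3 higher and 0 to 1 lower at 30 months, 0 to 2 lower in EDL at 30 against 6 months and 0 to 1 at 18 against 6 months. For EOM at 30 and at 18 against 6 months and for the interaction at 30 against 6 months it gave 0 to 1 higher. Without replicate 3 of EDL at 6 months, Atp2a2 J04024_at was called higher as the mean over ages (adjusted p = 0.0264), as was AA799276_at (0.0229), which was also called without replicate 2 of EDL at 6 months (0.0289) or at 18 months (0.011). With only the groups compared, AA799276_at was called higher at 30 months (0.75, adjusted p = 0.0212). Without replicate 3 of EDL at 6 months Pvalb was called lower at 6 months (0.00216) and at 30 months (0.0388). Without replicate 4 of EDL at 6 months, AA799276_at was called lower in EDL at 30 against 6 months (0.00357) and at 18 against 6 months (0.0073), and rc_AA957510_s_at at 30 against 6 months (0.0337). Without replicate 2 of EDL at 18 months the first 2 of these were also called (0.0255 and 0.0177), as was Atp2b1 rc_AI172499_at lower in EOM (0.0391).

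Replicate numbers recur across groups. The deviations of 53 of 60 pairs of arrays with the same number correlated above 0.1 (median 0.28, lowest -0.01), against a median of -0.12 for arrays with different numbers, and 22 of 24 arrays correlated best with their own number, which is a hint from the data and not the design. With the replicate block, EOM against EDL called 2896 probe sets in place of 2426 and EDL at 30 against 6 months 172 in place of 107. Atp2a1 was then called lower in EOM at 6, 18 and 30 months (adjusted p = 0.00691, 0.00144 and 0.0123) and Pvalb at 30 months (0.0465). Signals near the floor limit Pln in EDL, Atp2b1 rc_AI172499_at and Atp2b2, whose fold changes are understated.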
